A study of Mus musculus with 6 samples.

Results

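The genes described here encode the signalling chains of the T cell receptor complex, its coreceptor CD4 and the kinases and adaptors that act first when the receptor is engaged. They are Cd3e, Cd3d, Cd3g, Cd247, Cd4, Lck, Zap70, Lat and Lcp2, chosen by name for their place in the pathway, and they are 9 of the 15319 genes listed in the count table. All 9 had at least 1 count and were among the 15315 genes tested. RNA-Seq was performed on tumor-infiltrating Tregs in 3 WT and 3 cKO samples, from the lungs of mice of the C57BL/6J background. The mice were 8 to 10 weeks old when they were given LLC cells, a lung carcinoma line of the mouse, through the tail vein, and the tumors were taken on day 21 after that. The WT group (Foxp3 YFP-Cre) and the cKO group (Xrcc6 flox/flox with Foxp3 YFP-Cre) both carried the Cre driver, which acts in cells that express Foxp3, so they differed in the floxed alleles of Xrcc6, the gene of Ku70. Whether a library came from 1 mouse or a pool is not stated in the labels, and p-values measure the spread between these libraries.

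T cells recognize peptides through a variable receptor that has almost no cytoplasmic tail, and the CD3 gamma, delta, epsilon and zeta chains carry the signal inward. Lck, a Src family kinase held by CD4, phosphorylates the immunoreceptor tyrosine-based activation motifs (ITAMs) of these chains. ZAP-70 binds the phosphorylated motifs and in turn phosphorylates LAT and SLP-76, which assemble the enzymes that raise calcium and activate Ras. Tregs need this signal to keep their suppressive program.

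The chains of the complex differ in how many ITAMs they hold, and the motifs are shown because they are the part of the complex on which Lck and ZAP-70 act. A search of the coding transcripts in GENCODE vM21 for a tyrosine codon followed at the third next codon by leucine or isoleucine, repeated with 6 to 8 codons between both copies, found 1 motif in Cd3e, 1 in Cd3d, 1 in Cd3g and 3 in Cd247. The coding stretches, 5′ to 3′ on the coding strand of GRCm38 with the codons of the motif's 2 tyrosines in capitals, were as follows, and each lies across a splice junction, so the given span includes an intron.
Cd3e, chr9:44999549-45000440, minus strand: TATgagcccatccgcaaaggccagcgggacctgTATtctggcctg
Cd3d, chr9:44986095-44986311, plus strand: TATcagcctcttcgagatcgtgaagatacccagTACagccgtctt
Cd3g, chr9:44970735-44971268, minus strand: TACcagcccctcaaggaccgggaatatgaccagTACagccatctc
Cd247 motif 1, chr1:165856451-165857454, plus strand: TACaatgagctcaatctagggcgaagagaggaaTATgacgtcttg
Cd247 motif 2, chr1:165858473-165859260, plus strand: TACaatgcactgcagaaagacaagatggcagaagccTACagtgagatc
Cd247 motif 3, chr1:165859819-165861042, plus strand: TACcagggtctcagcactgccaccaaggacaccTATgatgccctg
The second motif of Cd247 was 48 bases long and the other 5 were 45 bases long. In the CD3 chains the motif lies close to the end of the protein, from codon 170 to 184 of 189 in Cd3e, from 149 to 163 of 173 in Cd3d and from 160 to 174 of 182 in Cd3g.

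Cd3g, Cd3d and Cd3e are neighbors on chromosome 9. Cd3d (chr9:44981786-44987339, plus strand) and Cd3g (chr9:44969572-44980431, minus strand) are transcribed away from each other from start sites 1355 bases apart, and the start of Cd3e (chr9:44998740-45009627, minus strand) lies 27841 bases from that of Cd3d. The windows at both divergent starts, from 250 bases before to 50 bases after the start in RefSeq (GRCm38.p6), are shown because they lie close together. Whether they have a part in how the counts of this pair varied between libraries was not tested. The capitals mark matches to GGAAGT (the core bound by ETS factors), TGTGGT (RUNX), CAGCTG (an E-box) or TATAAA, searched on both strands.
Cd3d, chr9:44981536-44981835, plus strand: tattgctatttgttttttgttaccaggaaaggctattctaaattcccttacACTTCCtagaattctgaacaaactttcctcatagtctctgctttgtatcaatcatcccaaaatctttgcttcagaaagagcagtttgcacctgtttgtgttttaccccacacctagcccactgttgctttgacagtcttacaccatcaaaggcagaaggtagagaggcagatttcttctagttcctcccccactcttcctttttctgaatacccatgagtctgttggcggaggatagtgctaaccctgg
Cd3g, chr9:44980382-44980681, minus strand: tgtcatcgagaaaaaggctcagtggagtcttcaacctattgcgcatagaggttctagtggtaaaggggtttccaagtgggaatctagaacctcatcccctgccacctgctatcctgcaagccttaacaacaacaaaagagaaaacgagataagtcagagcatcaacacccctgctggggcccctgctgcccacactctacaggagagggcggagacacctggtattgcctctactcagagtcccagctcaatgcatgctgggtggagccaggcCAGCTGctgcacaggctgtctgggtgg
The Cd3d window held 1 match to GGAAGT, read as its reverse complement, and the Cd3g window held 1 match to CAGCTG. Windows were available for 8 of the 9 genes, 11 in all, and GGAAGT was found in 6, TGTGGT in 3, CAGCTG in 2 and TATAAA in 0 of them. Among 32544 windows of this length, 23.74% held GGAAGT, 16.68% TGTGGT, 16.37% CAGCTG and 13.57% TATAAA.

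The remaining genes lie apart in GRCm38. Cd247, which encodes CD3 zeta, is at chr1:165788681-165877277 on the plus strand and shares 3007 exonic bases with Pou2f1 on the other strand. Cd4 is at chr6:124864692-124888221 on the minus strand, Lck at chr4:129548344-129573641 on the minus strand, Zap70 at chr1:36761798-36782818 on the plus strand, Lat at chr7:126363824-126369570 on the minus strand and Lcp2, the gene of SLP-76, at chr11:34046920-34092295 on the plus strand. The strand setting of the counting is not given in the sources used here, so reads from Cd247 and Pou2f1 cannot be told apart where they overlap. Pou2f1 itself was at 25.5 to 58.9 CPM, and Cd247 was the only gene of the 9 whose estimated counts were not whole numbers, in all 6 libraries.

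Total counts were 19032620 to 23159815 per library, and values below are CPM scaled by edgeR's TMM method, always in the order of replicates 1, 2 and 3 where 3 are given for a group. WT replicate 2 stood apart, with 11513 genes detected against 14442 to 14737 in the other libraries. It had no count for 31.4% of the 1168 genes that averaged 2 to 5 CPM elsewhere. That share was at most 0.0856% in any other library, which is partly fixed by choosing the genes on their level there. Each comparison is therefore given with and without WT replicate 2. The targeted gene Xrcc6 was at 20.9, 63.1 and 23.8 CPM in WT and at 5.24, 3.51 and 4.18 CPM in cKO. Its log2 fold change was -3.06 (SE 0.48, edgeR adjusted p = 0.984) with all libraries and -2.38 (edgeR adjusted p = 0.0196) without WT replicate 2. With all libraries DESeq2 called Xrcc6, at an adjusted p of 1.2e-05.

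None of the 9 genes passed an adjusted p of 0.05 between cKO and WT Tregs in edgeR's quasi-likelihood test. All were among the abundant transcripts of these cells, at 249 to 1101 CPM in every library. The log2 fold changes lay between -0.12 and 0.23, and the widest 95% interval, that of Cd3d, allowed a fold of 0.594 to 1.79. In the same test 0 of 15315 genes (0%) passed that threshold and 277 (1.81%) had an unadjusted p under 0.05, among them 0 of the 9. DESeq2 called 2 of all genes and 0 of the 9.

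Cd3e, whose chain pairs with both CD3 delta and CD3 gamma, was at 1087, 787 and 895 CPM in WT and at 926, 1077 and 1101 CPM in cKO. The lowest value was WT replicate 2, and the groups overlapped. Cd3e averaged 923 ± 151 CPM in WT and 1035 ± 94.7 CPM in cKO (SD, n = 3 each), a log2 fold change of 0.16 (SE 0.20, 95% interval -0.31 to 0.64, unadjusted p = 0.440 in edgeR's quasi-likelihood test).

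Cd3d was at 855, 367 and 596 CPM in WT and at 462, 803 and 612 CPM in cKO. It varied more than any other of the 9 genes, by 2.33-fold from lowest to highest, and both groups spanned most of that range. Cd3g was at 888, 429 and 607 CPM in WT and at 511, 835 and 630.1 CPM in cKO. The libraries ranked alike for both genes, with WT replicate 1 and cKO replicate 2 high and WT replicate 2 and cKO replicate 1 low. Between groups, the log2 fold change was 0.05 for Cd3d (SE 0.34, 95% interval -0.75 to 0.84) and 0.04 for Cd3g (SE 0.31, 95% interval -0.68 to 0.76).

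Cd247, the chain with 3 ITAMs, was at 314, 249 and 262 CPM in WT and at 266, 345 and 312 CPM in cKO. The groups overlapped, and the means of 275 ± 34.3 and 308 ± 39.2 CPM (SD, n = 3 each) differed by less than the SD of either group. Its log2 fold change was 0.16 (SE 0.17, 95% interval -0.24 to 0.56).

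Cd4, the coreceptor of class II-restricted T cells, was at 899.5, 493 and 641 CPM in WT and at 749, 801 and 832 CPM in cKO. The WT libraries held both the highest and the lowest value, and the cKO libraries lay between them. WT averaged 678 ± 206 CPM and cKO 794 ± 41.7 CPM (SD, n = 3 each), with a log2 fold change of 0.23 (SE 0.24, 95% interval -0.34 to 0.80), the largest of the 9. The gate described in the study for murine Tregs of spleen and lymph node was CD4+CD25+YFP+, so CD4 protein may have been part of the choice of cells. A gate for the tumor-infiltrating cells is not given in the sources used here.

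Lck was at 1015, 830.2 and 853 CPM in WT and at 832, 857 and 793 CPM in cKO. WT replicate 1 was the highest library, and the other 5 lay within 793 and 857 CPM. The log2 fold change of Lck was -0.12 (SE 0.18, 95% interval -0.53 to 0.29). Zap70, the Syk family kinase of T cells, was at 433, 340.1 and 357 CPM in WT and at 361, 368 and 325 CPM in cKO, with WT replicate 1 again highest. Its log2 fold change of -0.10 (SE 0.16, 95% interval -0.48 to 0.28) was close to that of Lck.

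The adaptor Lat, a membrane scaffold, was at 477, 642 and 612 CPM in WT and at 491, 597 and 587 CPM in cKO. The first replicate was the lowest in each group. Lat had a log2 fold change of -0.05 (SE 0.19, 95% interval -0.49 to 0.39). Lcp2 was at 399.7, 367 and 367 CPM in WT and at 377, 446 and 415 CPM in cKO, so that the cKO replicate 1 value lay among those of WT. It had the narrowest interval of the 9, at a log2 fold change of 0.13 (SE 0.15, 95% interval -0.23 to 0.48).

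**Figure D1:**
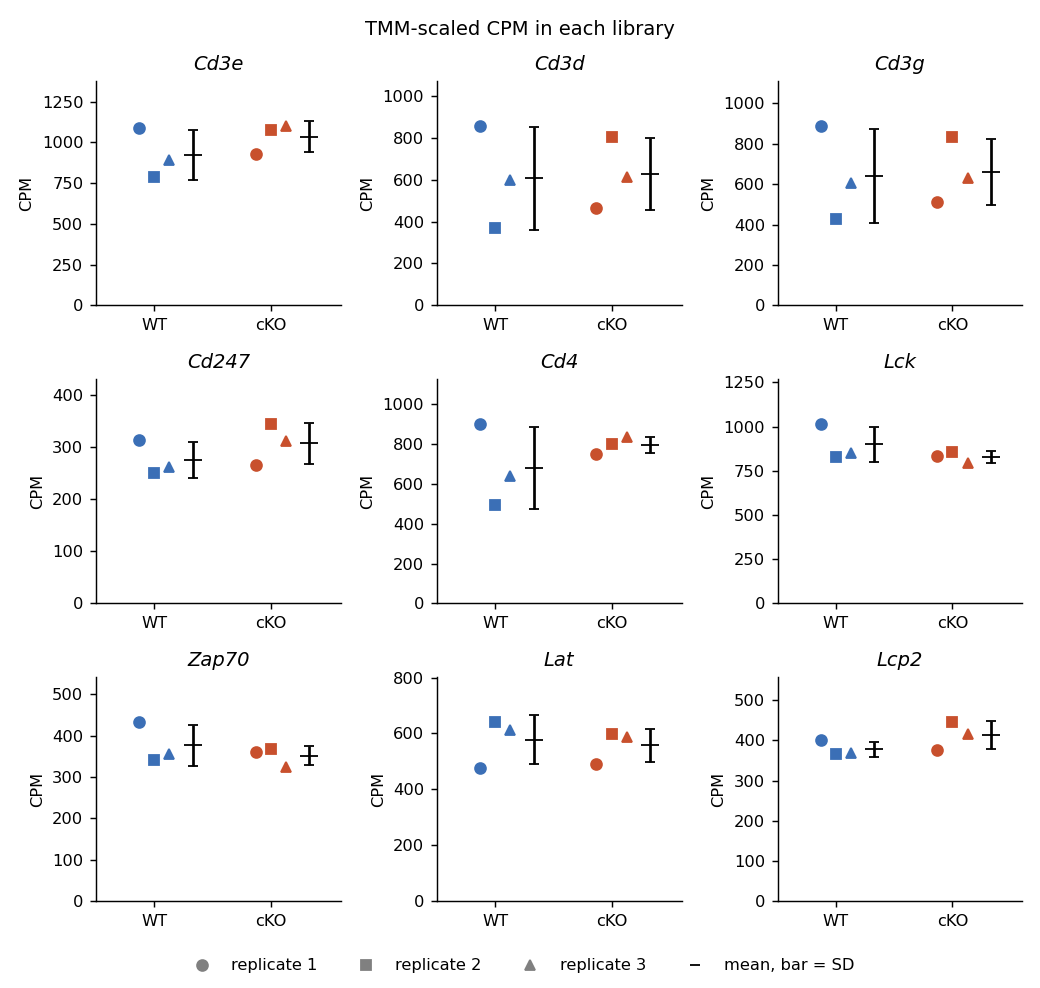
TMM-scaled CPM of the 9 genes in each WT and cKO library. Each panel is 1 gene with its own vertical axis from 0, symbols mark the replicate number, and the bar is the mean with SD of 3 libraries. The WT and cKO points overlap in every panel, and Cd3d and Cd3g are the most widely spread, from 367 to 855 CPM and from 429 to 888 CPM.

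The WT and cKO values overlapped for all 9 genes, while 1262 of 15315 genes (8.24%) had groups that did not overlap. Without WT replicate 2 they again overlapped for all 9, against 2451 of 15302 genes (16%) that did not. As a list, 6 of the 9 genes had a higher and 3 a lower mean in cKO, with a median log2 fold change of 0.05. Over all genes tested the median was 0.04, with 8343 higher and 6972 lower.

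Leaving out WT replicate 2 lowered the upper bound of each of the 9 genes but Lat, most for Cd3d, Cd3g and Cd4. The log2 fold change became 0.06 for Cd3e (95% interval -0.37 to 0.49), -0.21 for Cd3d (-0.81 to 0.39), -0.18 for Cd3g (-0.76 to 0.40) and 0.10 for Cd247 (-0.30 to 0.49). That of Cd4 was 0.04 (-0.40 to 0.49). The sign of Cd3d and Cd3g turned without WT replicate 2, their lowest library, and each interval still contained 0. The kinases and adaptors moved less than Cd3d, Cd3g and Cd4, with a turn of sign for Lat, to -0.18 for Lck (-0.57 to 0.22), -0.17 for Zap70 (-0.54 to 0.20), 0.04 for Lat (-0.39 to 0.46) and 0.11 for Lcp2 (-0.26 to 0.47). Of 15302 genes 1 (0.00654%) was called by edgeR at an adjusted p of 0.05 in this comparison, which was Xrcc6, and 461 (3.01%) had an unadjusted p under 0.05, with 0 of the 9 genes in either count. The intervals of the 9 together ranged from a fold of 0.570 to 1.41. Their median log2 fold change was 0.04, with 5 genes higher and 4 lower, against -0.01 over all genes.

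**Figure D2:**
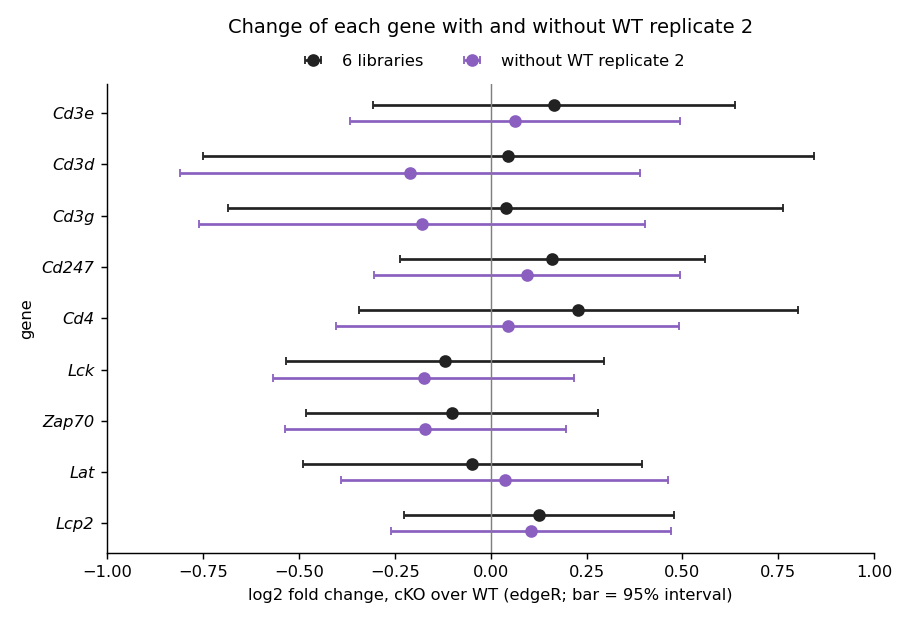
Log2 fold change of cKO over WT for each of the 9 genes, from edgeR with all 6 libraries (black) and without WT replicate 2 (purple). Points are estimates and bars are 95% intervals. Every interval contains 0, and the 6-library intervals of Cd3d, -0.75 to 0.84, and Cd3g, -0.68 to 0.76, are among the widest.

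Levels can be set beside each other only per length. When the counts were divided by the union of the exons of each gene and scaled to the same sum in every library (TPM), Cd3d had the highest mean level of the 9 over the 6 libraries, 967 with a range of 731 to 1258. Lck followed at 864 (742 to 1025), Cd3e at 696 (644 to 747), Lat at 606 (460.3 to 839), Cd3g at 569 (475 to 725) and Cd4 at 527 (442 to 596). The ranges of neighbors in this order overlapped from Cd3d down to Cd4. Below them, Zap70 at 356 (300.3 to 411), Lcp2 at 259 (239 to 298) and Cd247 at 159 (144 to 169) had ranges that did not overlap with those of the gene above, and leaving out a library cannot make them overlap. The 9 genes ranked between 167 and 874 among 14757 genes with an annotated length. The order of the upper genes depended on the length used. By the longest protein-coding transcript, Cd3e was first at 1276 and Cd3g next at 1192, followed by Lat at 893, Lck at 761 and Cd3d at 711, whereas Cd4, Zap70, Lcp2 and Cd247 followed in the same order as before. The gap between Lcp2 and Cd247 held only for the union of exons, since their ranges overlapped by the longest annotated transcript (215 to 272 and 191 to 228) and by the longest protein-coding transcript (191 to 246 and 170 to 205).

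The ratio of 2 genes in the same library does not depend on the scaling between libraries. Zap70 over Lck was the steadiest, at 0.427, 0.410 and 0.418 in WT and 0.434, 0.429 and 0.409 in cKO. The pair of kinases thus kept nearly the same proportion of counts in every library, including WT replicate 2. Cd3g over Cd3d lay between 1.02 and 1.17. By contrast, Cd3e over Cd3d was 1.27, 2.15 and 1.502 in WT and 2.003, 1.34 and 1.80 in cKO, and Cd247 over Cd3d ranged from 0.367 to 0.680. Cd4 over the 4 CD3 chains summed was 0.286, 0.269 and 0.272 in WT and 0.346, 0.262 and 0.313 in cKO. Lcp2 over Lat was 0.838, 0.572 and 0.600 in WT and 0.767, 0.747 and 0.707 in cKO. All 6 ratios overlapped between groups. The log2 difference of cKO minus WT was largest for Lcp2 over Lat, at 0.16, and for Cd4 over the CD3 chains, at 0.15, each with p = 0.4 in the exact two-sided permutation test and an adjusted p of 1 over the 6 ratios, where 3 libraries against 3 cannot go below 0.1. Without WT replicate 2 the differences ranged from 0.00 for Zap70 over Lck to 0.32 for Cd247 over Cd3d, with exact permutation p from 0.4 to 1 and a smallest possible p of 0.2.

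**Figure D3:**
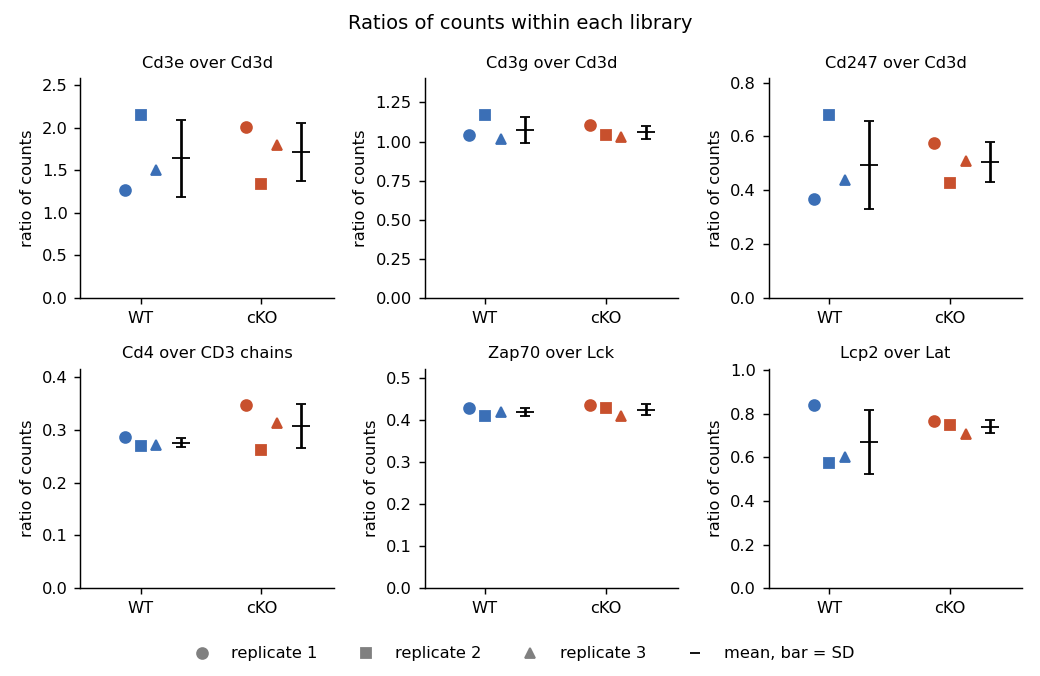
Ratios of counts within each library for 6 pairs of genes, by group. Each panel has its own vertical axis from 0, symbols mark the replicate number, and bars are the mean with SD of 3 libraries. Zap70 over Lck stays within 0.409 and 0.434, whereas Cd3e over Cd3d ranges from 1.27 to 2.15, and the groups overlap in every panel.

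The wide spread of Cd3d and Cd3g lay within both groups. On the log2(CPM + 0.5) scale the SD over 6 libraries was 0.465 for Cd3d and 0.403 for Cd3g, against 0.316 for Cd4, 0.196 for Cd3e, 0.184 for Cd247, 0.177 for Lat, 0.142 for Zap70, 0.123 for Lck and 0.112 for Lcp2. Among the 1887 genes with a mean of at least 100 CPM the median SD was 0.233, and 86.3% were below Cd3d and 80.4% below Cd3g. After centering each gene on its mean, Lck and Zap70 were the closest pair, with a root mean square difference of 0.0323, followed by Cd3e with Cd247 at 0.0693 and Cd3d with Cd3g at 0.0708. The farthest pair was Cd3d with Lat, at 0.505. The genes nearest to the mean profile of the 4 CD3 chains among 8438 genes with a mean of at least 10 CPM were Clic1 (0.0308), Cox5b (0.0396), Lamtor4 (0.0404), Aurkaip1 (0.0424) and Hint3 (0.0430), with longest protein-coding transcripts of 1466, 865, 877, 1159 and 875 bases. These values describe 6 shared libraries and carry no test.

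Genes with short transcripts also varied between these libraries. The 441 genes with a longest protein-coding transcript of up to 1000 bases had median centered values of 0.32, -0.60 and 0.04 in WT and -0.14, 0.33 and 0.07 in cKO. Cd3d was at 0.53, -0.69 and 0.01 in WT and -0.35, 0.44 and 0.05 in cKO, and Cd3g at 0.50, -0.55 and -0.05 in WT and -0.30, 0.41 and 0.00 in cKO. The sign of this class and of both genes was shared in the 4 libraries where the genes lay farthest from 0, but neither gene belongs to it. The class of 1000 to 1500 bases, which holds Cd3g, was at 0.16, -0.21 and -0.01 in WT and -0.10, 0.16 and 0.02 in cKO. The class of 1500 to 2000 bases, which holds Cd3d, lay close to 0, at 0.09, 0.00 and -0.04 in WT and -0.04, 0.07 and 0.00 in cKO, and did not share the low value of Cd3d in WT replicate 2. The 1743 genes above 5000 bases went the other way in those libraries, at -0.10, 0.11, 0.07 and -0.12 in WT replicates 1 and 2 and cKO replicates 1 and 2. The longest protein-coding transcript has 1617 bases in Cd3d, 1023 in Cd3g, 1462 in Cd3e and 1235 in Lat, against 2185 to 3644 in the other 5 genes. Lat did not share the pattern, at -0.24, 0.19 and 0.12 in WT and -0.20, 0.08 and 0.06 in cKO. A fit with a library-specific trend on transcript length over 14757 genes was added after the data were seen. It gave log2 fold changes of 0.04 for Cd3d (SE 0.29) and -0.01 for Cd3g (SE 0.18, 95% interval -0.43 to 0.41). These SEs were smaller than the 0.34 and 0.31 above. The SE also fell for genes with longer transcripts, from 0.177 to 0.142 for Lck and from 0.163 to 0.135 for Zap70. In this fit Lat alone of the 9 genes had a larger SE, 0.22 against 0.19, with a log2 fold change of -0.12. The fit also called 0 of the 9 genes. Whether transcript length had a part in the spread of Cd3d and Cd3g was not tested.

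**Figure D4:**
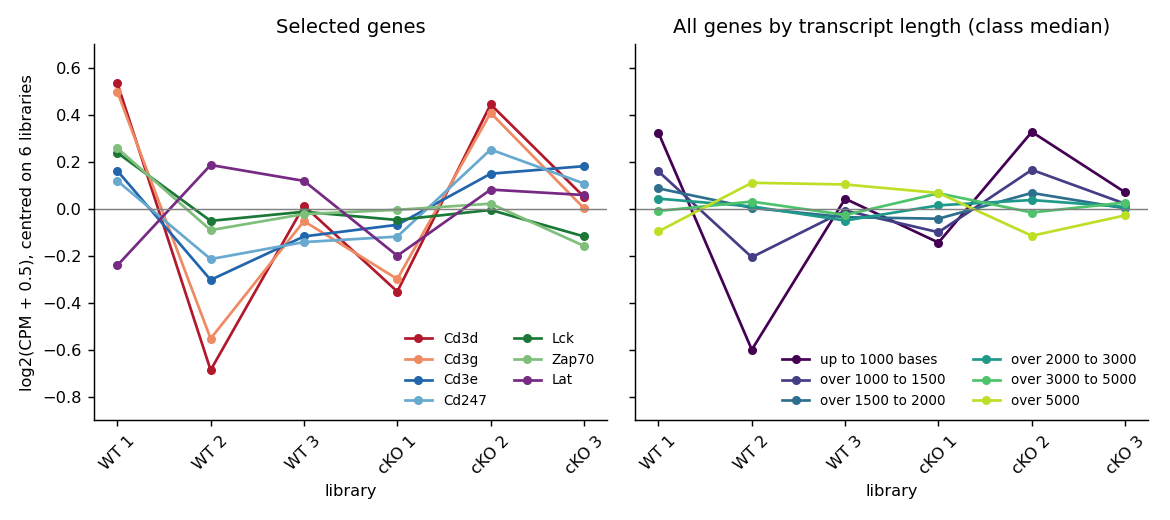
Log2(CPM + 0.5) centered on the mean of 6 libraries, for 7 of the genes (left) and as the median of all genes in classes of transcript length (right). Lines only join the libraries for the eye. Cd3d and Cd3g lie near 0.5 in WT replicate 1 and at -0.69 and -0.55 in WT replicate 2, and the class of up to 1000 bases is at 0.32 and -0.60 in the same libraries.

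The other genes of the pathway were grouped by role, and 0 of the genes tested in these groups were called in either direction, with or without WT replicate 2. None had an unadjusted edgeR p under 0.05. The accessory and costimulatory receptors, 10 of 10 tested, had a median log2 fold change of 0.02, with 6 higher and 4 lower in cKO. Ptprc, which encodes the phosphatase CD45 that keeps Lck active, was at 991 to 1152 CPM and its log2 fold change was -0.03 (SE 0.18). Icos, a costimulatory receptor abundant on activated Tregs, was at 697 to 1150 CPM with a log2 fold change of -0.18 (SE 0.22). Cd28, the main costimulatory receptor, was at 549, 1085 and 810 CPM in WT and 626, 807 and 731 CPM in cKO. The highest value of Cd28 was WT replicate 2, and its log2 fold change went from -0.18 (SE 0.27) to 0.09 (SE 0.22) without that library.

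Of the other Src, Syk and Tec family kinases 12 of 13 were tested, with a median log2 fold change of 0.17, 9 higher and 3 lower. Fyn, the second Src family kinase of T cells, was at 394 to 442 CPM with a log2 fold change of 0.00 (SE 0.15). Src itself was at 33.8 to 50.4 CPM and had a log2 fold change of -0.25 (SE 0.18). Syk, Btk and Fgr, kinases of B and myeloid cells, were at 0 counts in WT replicate 2 and at most at 9.74 CPM elsewhere, and their fitted changes are not given singly because they depend on how a count of 0 is treated.

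The LAT and SLP-76 signalling partners, 22 of 22 tested, had a median log2 fold change of 0.05, with 13 higher and 9 lower. Without WT replicate 2 the median was 0.14, with 16 higher and 6 lower, and without WT replicate 1 it was -0.06. Sh2d2a, an adaptor that binds Lck, was at 575 to 761 CPM with a log2 fold change of -0.17 (SE 0.17). Fyb, which links SLP-76 to the cytoskeleton, was at 354 to 436 CPM, with a value of 0.09 (SE 0.16). Hcls1, an actin regulator, was at 254 to 364 CPM, with a value of 0.14 (SE 0.18). The negative regulators, 18 of 18 tested, had a median of 0.03, with 11 higher and 7 lower. Sla, an adaptor that lowers receptor levels, was at 626 to 843 CPM and its log2 fold change was 0.01 (SE 0.19). Dgka, which removes diacylglycerol, was at 364, 771 and 558 CPM in WT and 535, 553 and 687 CPM in cKO, with a log2 fold change of 0.07 (SE 0.28) that became 0.36 (SE 0.22) without WT replicate 2. Ptpn22, a phosphatase of Lck and ZAP-70, was at 343 to 406 CPM with a value of -0.03 (SE 0.15).

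The signalling adaptors of other lineages, 7 of 7 tested, had a median log2 fold change of 0.51, with 6 higher and 1 lower, and 0.62 without WT replicate 2. Hcst, the adaptor DAP10, was at 174, 44.6 and 132 CPM in WT and 118, 212 and 169 CPM in cKO, a log2 fold change of 0.51 (SE 0.46), and its longest protein-coding transcript has 442 bases. Tyrobp, the ITAM adaptor of myeloid and NK cells, was at 11.2, 17.9 and 36.3 CPM in WT and 14.2, 37.0 and 60.0 CPM in cKO, with a log2 fold change of 0.77 (SE 0.58). Fcer1g, the Fc receptor gamma chain, was at 11.3, 10.7 and 38.9 CPM in WT and 11.0, 39.7 and 64.3 CPM in cKO, with a value of 0.92 (SE 0.71). In CPM both were below Cd247, whose lowest library was at 249 CPM. Their longest protein-coding transcripts have 564 and 683 bases against 2957 in Cd247, so the CPM do not show that they were lower per length. Of the 7 constant genes of the receptor chains that were looked for by symbol, 0 were among the genes tested, so they were not analysed here.

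Markers of other cells were measured beside these genes. The 5 Treg markers summed to 2869 to 3550 CPM in WT and 2366 to 3010 CPM in cKO, and none was at 0 in any library. The 5 macrophage markers, none at 0, summed to 150.4 to 614 CPM in WT and 198 to 785 CPM in cKO. The lowest sum of each group was in its first replicate. The 5 B cell markers summed to 14.7 to 23.7 CPM in WT and 12.0 to 48.3 CPM in cKO, the 2 CD8 T cell markers to 5.22 to 20.5 and 18.3 to 19.9 CPM, the 5 neutrophil markers to 2.44 to 11.0 and 7.98 to 13.5 CPM, and the 3 NK cell markers listed to 0.717 to 2.19 and 1.06 to 2.31 CPM. Cd8a, the defining marker of CD8 T cells, was at 0 in 1 library, Ms4a1 and Pax5 of B cells, S100a9, Retnlg and Ly6g of neutrophils and Klrb1c and Klre1 of NK cells each in at least 1. None of the lists held a called gene. An unadjusted edgeR p under 0.05 was found for 1 of the 5 B cell markers, Pax5, and for 2 of the 5 neutrophil markers, Retnlg and S100a9. Over all genes this share was 1.81% (277 of 15315), and these markers were each at 0 in at least 1 library. The part of these cells in the values above was not tested. In bulk RNA, fewer cells of a type and less RNA per cell cannot be told apart.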

How the data were processed

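RNA-Seq libraries of Tregs were sequenced as 150 bp paired-end reads, and the submitters' processing notes name Bowtie2 (version 2.3.4.3), RSEM (version 1.3.1) and GRCm38. The annotation used for counting and its strand setting are not given in the sources used here. The deposited values are expected counts for each symbol without normalization, of which 21.6% were not whole, and these were rounded. Groups came from the sample titles. The counts of the 15315 genes with at least 1 count were tested with edgeR (version 4.0.16, TMM, quasi-likelihood, Benjamini-Hochberg over all of them) in R (version 4.3.3), without covariates. Ratios of counts were compared with exact permutation tests (scipy version 1.17.1). The precision is that of 19032620 to 23159815 counts per library and 3 libraries per group. Gene positions and lengths came from GENCODE vM21 and promoter windows from RefSeq. The tested scripts were checked on simulated data.

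Named beside the 9 genes were Xrcc6, the 3 most abundant genes of each pathway list, any list gene with an unadjusted p under 0.05, and the 5 genes nearest to the CD3 profile. Not every gene that this rule names is reported here. These genes and lists were chosen with earlier results of these data known. The alternatives tried were library size only, median-of-ratios scaling, DESeq2 (version 1.42.0), filterByExpr (minimum count 10), a replicate block, each library left out, other gene lengths and, added after the data were seen, an offset for transcript length and each choice without WT replicate 2.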

Additional observations from a re-analysis of the deposited data

How the results depend on the processing

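The count of called genes among the 9 was 0 under every alternative run. Over all genes, edgeR called 0 with 6 libraries and 0 to 1 when each library was left out, DESeq2 called 2, and DESeq2 without WT replicate 2 called 3. Without that library edgeR called 1 under filterByExpr, library size only, median-of-ratios scaling and the transcript length offset alike. With the replicate number as a block edgeR called 0, with 85 genes at an unadjusted p under 0.05 against 277, and the median of the 9 genes was 0.09. After each gene was centered on its group mean, correlations between same-numbered WT and cKO libraries were 0.114, -0.0941 and 0.211. Between differently numbered libraries they ranged from -0.280 to 0.161. The highest, 0.211, was thus of a same-numbered pair, but 1 such pair was below 0, and the numbers were not taken to pair samples.

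The median log2 fold change of the 9 genes, 0.05, ranged from -0.10 to 0.27 when each library was left out, the highest without WT replicate 1, where the median of all genes was 0.11. In that fit Cd4 was at 0.49, with an unadjusted edgeR p of 0.0487 and an adjusted p of 0.677, and Zap70 at 0.012. Of all genes, 874 had an unadjusted edgeR p under 0.05 in that fit, against 277 with all 6 libraries, and 0 were called. The median of the negative regulators, 0.03, was -0.022 with library size only, 0.088 with the replicate block and 0.0070 to 0.097 with each library left out. With each library left out, the median ranged from -0.011 to 0.069 for the accessory receptors and from -0.056 to 0.14 for the LAT and SLP-76 partners, and with library size only these medians were -0.047 and -0.022. It stayed above 0 under the alternatives run for the other kinases, at 0.13 to 0.30, and for the adaptors of other lineages, at 0.32 to 0.97, with each library left out.

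Cd3d was at -0.0056 and Cd3g at -0.015 with library size only, and Cd3g at -0.011 with the length offset. Without WT replicate 2, Cd3d was at -0.21 with TMM, DESeq2, filterByExpr and median-of-ratios scaling, -0.23 with library size only and -0.20 with the offset. Cd3g was at -0.18 in the first 4 of these, -0.20 and -0.11, and Lat at 0.036, 0.033, 0.037, 0.033, 0.017 and 0.073. With each library left out, Cd3d ranged from -0.21 to 0.38, Cd3g from -0.18 to 0.35, Lat from -0.17 to 0.037 and Zap70 from -0.17 to 0.012. The log2 differences of the ratios ranged from -0.087 to 0.29 for Cd3e over Cd3d, -0.059 to 0.041 for Cd3g over Cd3d and -0.13 to 0.32 for Cd247 over Cd3d. The cause of these changes of sign was not tested. With 3 libraries per group, the widest 6-library interval, that of Cd3d, allows a fold of 0.594 to 1.79. This is not a limit of detection, since the same test did not call Xrcc6 at a log2 fold change of -3.06.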

Other observations

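The genes nearest to the mean centered profile of Cd3d and Cd3g alone, listed after the values were seen, were led by Ndufa11, a subunit of mitochondrial complex I, with a root mean square difference of 0.0542 on the log2 scale over 6 libraries and a longest protein-coding transcript of 918 bases.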
